A study of Arabidopsis thaliana and Zea mays with 12 samples.

Results

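Polycomb repressive complex 2 (PRC2) places methyl groups on lysine 27 of histone H3 and so keeps developmental genes silent. The complex has a catalytic subunit of the E(z) class, a scaffold of the Su(z)12 class, a WD40 subunit of the Esc class and a histone-binding subunit of the p55 class. Arabidopsis builds several forms of it: CLF or SWN with EMF2 or VRN2 act in the growing plant, where they repress floral and meristem genes and take part in the memory of winter cold, and MEA with FIS2 acts in the female gametophyte and the endosperm of the seed. FIE and MSI1 are shared by all forms, and LHP1 is a chromodomain protein that binds the methylated histone. The 9 genes for these proteins were taken by their identifiers from the 27411 genes with expression values, by a rule that did not use the values. They are CLF (AT2G23380), SWN (AT4G02020), MEA (AT1G02580), EMF2 (AT5G51230), VRN2 (AT4G16845), FIS2 (AT2G35670), FIE (AT3G20740), MSI1 (AT5G58230) and LHP1 (AT5G17690).

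The series has 12 samples, of which 2, the wild-type RNA-seq replicates, have values here. They come from untreated Col-0 plants grown for 3 weeks. The labels name leaves as the tissue, and the methods speak of plants. The 10 other samples, which are IP and input libraries for the DNA base N4-acetyldeoxycytosine in Col-0, treated Col-0 DNA, met1, rdd and B73, were not analysed here. All values are FPKM, the fragments of a gene scaled by its exon length and by the size of the library. With 1 genotype and 1 condition, no test between conditions could be made. A difference between genes is therefore set against the spread of the 2 replicates, which the methods call biological. RNA came from many cell types in bulk, so fewer cells that express a gene and less RNA per cell cannot be told apart.

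The labelled tissue was checked with marker genes. All 7 leaf markers were above 1 FPKM, against 47.7% of all genes. They ran from the phloem sucrose transporter gene SUC2 at 18.4 ± 0.0396 (SD, n = 2) to the photosystem II gene PSBR at 49649 ± 3548. None of 9 seed storage genes was above 1 FPKM, against the same 47.7%. Their summed FPKM was 0.168 in replicate 1 and 0.143 in replicate 2. The highest was the albumin gene SESA1 at 0.109 ± 0.0401, and SESA3, SESA4, CRB and CRC were listed at 0 in both replicates. The other 5 of the 9 were above 0, against 82.2% of all genes. Of 6 endosperm markers, none was above 1 FPKM and 3 were above 0, against 47.7% and 82.2% of all genes. FWA, ZOU and IKU2 were listed at 0 in both. The endosperm MADS-box gene AGL62 was the highest at 0.140 ± 0.0439, followed by PHE1 at 0.108 ± 0.00740. The shoot meristem gene STM was at 8.73 ± 0.0397 FPKM, the mitotic kinase gene CDKB1-1 at 12.2 ± 1.66 and the cytokinesis gene KN at 3.06 ± 0.0927. Whether shoot apices were part of the material labelled leaves was not tested.

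The paralogs of a class share parts of their coding sequence, and reads of a strongly expressed copy could be counted for a weak one where the copies are identical. The longest stretch shared base for base was 30 bp between SWN and MEA, 20 bp between CLF and SWN, and 13 bp between CLF and MEA. In the Su(z)12 class it was 15 bp between VRN2 and EMF2 and between VRN2 and FIS2, and 12 bp between EMF2 and FIS2. Every window of 50 bp inside the exons of CLF, SWN, MEA, EMF2, VRN2, FIE, MSI1 and LHP1 was found once in the genome. Of 1979 windows of FIS2, 6 were found more than once, and repeats inside FIS2 were not told from copies elsewhere. The 90 coding bases that the E(z) class shares best lie in 1 exon of each gene, at chr2:9958960-9959049 for CLF, chr4:890365-890454 for SWN and chr1:547773-547862 for MEA (TAIR10.1, plus strand). They are shown because the level of MEA rests on reads that can be told from those of its paralogs, and capitals mark each base that differs from CLF.
CLF: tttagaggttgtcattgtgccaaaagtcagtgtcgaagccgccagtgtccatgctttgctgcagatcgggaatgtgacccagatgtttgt
SWN: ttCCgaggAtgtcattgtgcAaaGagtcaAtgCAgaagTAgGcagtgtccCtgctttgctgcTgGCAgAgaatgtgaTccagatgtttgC
MEA: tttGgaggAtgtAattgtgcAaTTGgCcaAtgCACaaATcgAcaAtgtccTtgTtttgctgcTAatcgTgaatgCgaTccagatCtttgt

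SWN differed from CLF at 19 of these 90 bases and MEA at 24. The best-shared 90 bases of the Su(z)12 class lie near the end of each coding sequence, at chr4:9479486-9479575 for VRN2, chr5:20829246-20829335 for EMF2 and chr2:14996391-14996480 for FIS2 (TAIR10.1, plus strand, 1 exon each). Capitals mark each base that differs from VRN2, and they show how far apart the 3 paralogs are even where they are most alike.
VRN2: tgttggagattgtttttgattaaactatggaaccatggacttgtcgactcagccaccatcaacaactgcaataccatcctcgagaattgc
EMF2: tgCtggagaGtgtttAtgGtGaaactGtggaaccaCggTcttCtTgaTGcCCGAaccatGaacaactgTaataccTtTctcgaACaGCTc
FIS2: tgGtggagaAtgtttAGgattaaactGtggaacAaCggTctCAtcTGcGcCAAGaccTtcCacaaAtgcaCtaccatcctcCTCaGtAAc

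Here EMF2 differed from VRN2 at 25 bases and FIS2 at 27. A read of the length the labels give spans more than such a window.

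The sporophytic subunits were measured well above 0 in both replicates and the seed-specific subunits were at or near 0. EMF2 and VRN2 averaged above 1 FPKM, and CLF and SWN below it. CLF, SWN, EMF2 and VRN2 summed to 4.20 FPKM in replicate 1 and 4.10 in replicate 2, and MEA and FIS2 to 0.00469 and 0.0124. The lowest sporophytic gene, CLF, was at 0.326 and 0.303 FPKM, and the highest seed-specific gene, MEA, at 0.00469 and 0.0124, so the groups did not overlap in either replicate. On the scale of log2(FPKM + 1), the mean of the 4 sporophytic genes exceeded that of the 2 seed-specific genes by 0.95 in replicate 1 and 0.94 in replicate 2. The mean difference of 0.94 ± 0.00965 (SD, n = 2) depends on the pseudocount, since MEA and FIS2 lie so close to 0. The subunits are single genes, not replicates of a condition, and no p-value is given. A permutation over 1 value against 1 could not go below 0.5.

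**Figure D1:**
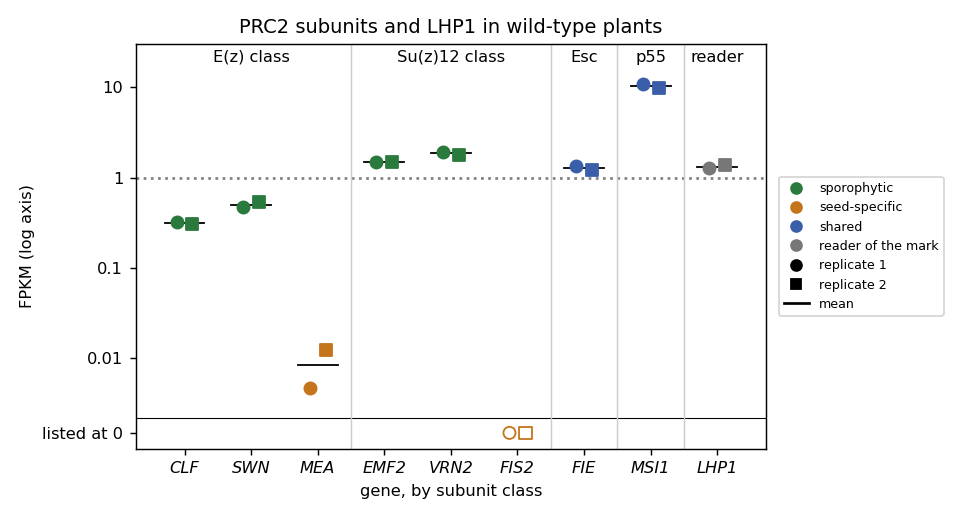
FPKM on a log axis for the 9 genes in replicate 1 (circles) and replicate 2 (squares), with the mean as a line, a dotted line at 1 FPKM, and open symbols for values listed at 0. CLF, SWN, EMF2 and VRN2 lie between 0.303 and 1.94 FPKM, MEA at 0.00469 and 0.0124, and FIS2 is listed at 0 in both.

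In the E(z) class, SWN was the most expressed gene. SWN, one of the 2 methyltransferases of the growing plant, was at 0.467 FPKM in replicate 1 and 0.537 in replicate 2. CLF, the methyltransferase whose loss curls the leaves, was at 0.326 and 0.303 FPKM. Both values of SWN were above both of CLF, and the difference of the means (0.187 FPKM) passed 2 SDs of the replicates (0.0735). MEA, the methyltransferase of the female gametophyte and endosperm, was at 0.00469 FPKM in replicate 1 and 0.0124 in replicate 2. SWN thus made up 58.6% of the FPKM of the class in replicate 1 and 63.0% in replicate 2, CLF 40.9% and 35.6%, and MEA 0.588% and 1.46%.

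In the Su(z)12 class, VRN2 was above EMF2 by FPKM, and FIS2 was listed at 0. VRN2, which is required for the memory of winter cold at the floral repressor FLC, was at 1.94 FPKM in replicate 1 and 1.77 in replicate 2. EMF2, which prevents flowering straight from the seedling, was at 1.47 and 1.48 FPKM. The values did not overlap, and the difference of the means (0.383 FPKM) was larger than 2 SDs (0.165). FIS2, which represses endosperm growth before fertilization, was listed at 0 in both replicates. VRN2 made up 56.9% of the FPKM of the class in replicate 1 and 54.5% in replicate 2, and EMF2 the remaining 43.1% and 45.5%. The labels name a single growth temperature and no cold treatment.

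The shared subunits differed widely from each other. MSI1, a WD40 protein that also serves in the histone chaperone CAF-1 and in other complexes, was at 10.7 FPKM in replicate 1 and 9.76 in replicate 2, the highest of the 9 genes. FIE, the only Esc-class subunit of the plant, was at 1.33 and 1.22 FPKM. The ratio of MSI1 to FIE was 8.10 in replicate 1 and 8.01 in replicate 2. LHP1, the reader of the mark, was at 1.28 and 1.36 FPKM, and its values overlapped those of FIE. By mean FPKM the order was therefore MSI1, VRN2, EMF2, LHP1, FIE, SWN, CLF, MEA and FIS2. LHP1 and FIE were the neighbours in this order that did not differ beyond their spread. MEA and FIS2 differed by 0.00855 FPKM, a value that rests on the few fragments of MEA described with the fragment steps.

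**Figure D2:**
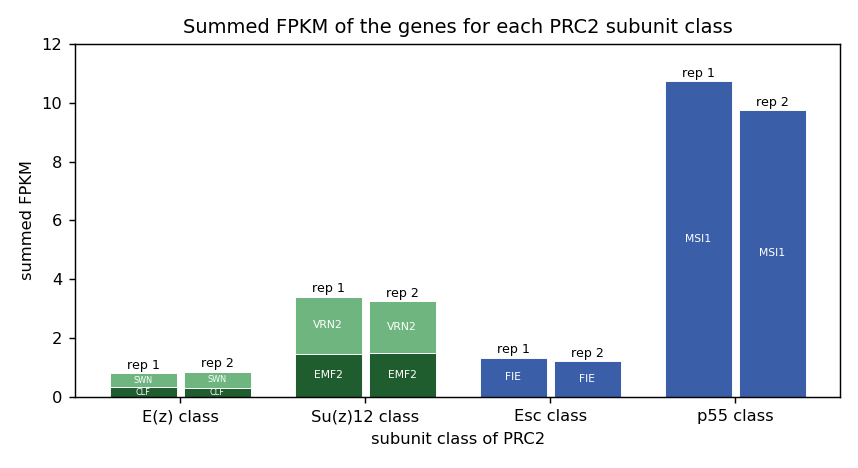
Summed FPKM of each PRC2 subunit class in replicates 1 and 2, with each gene as a segment of its bar. The sums rise from the E(z) class (0.797 and 0.852 FPKM) over the Esc class (1.33 and 1.22) and the Su(z)12 class (3.41 and 3.26) to the p55 class (10.7 and 9.76), and the segments of MEA and FIS2 are too small to be seen.

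By FPKM, the catalytic class had the lowest summed level. The E(z) genes together reached 0.825 ± 0.0390 FPKM (SD, n = 2), against 1.27 ± 0.0765 for FIE, 3.33 ± 0.107 for the Su(z)12 genes and 10.2 ± 0.696 for MSI1. Relative to the E(z) class these levels were 1.54, 4.04 and 12.4 times as high. FPKM is a level per exon length and describes mRNA, so these ratios say nothing of the protein in the complex. The sums were not set against genes of similar length. Among such genes SWN lay at percentile 50.8 and CLF at 39.2, and FIE at 43.3, so the low place of this class is one by FPKM only.

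The genes differ in structure, and FPKM is scaled by exon length. The longest transcript measured 3456 bp for CLF (17 exons) and 3354 bp for SWN (15 exons), against 1626 bp for MSI1 (6 exons) and 1563 bp for FIE (13 exons), and the median over all genes with a known length was 1541 bp. Among genes of similar length (at least 0.8 times that of the member, and at most the inverse of that factor), SWN lay at percentile 50.8 by mean FPKM and CLF at 39.2. EMF2 (2599 bp, 22 exons) lay at percentile 61.5 and VRN2 (1884 bp, 14 exons) at 52.7 of genes of their own length. MSI1 lay at 78.0, LHP1 at 47.3 and FIE at 43.3. On this scale EMF2 stood above VRN2, and SWN above LHP1 and FIE, the reverse of their order by FPKM. MEA lay at 9.34 and FIS2 at 3.10, the lowest of the 9 on this scale too. GC content of the transcripts varied little, from 39.7% in VRN2 to 43.1% in MSI1.

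The 9 genes lie on all 5 nuclear chromosomes, and their positions in TAIR10.1 are as follows. CLF lies on chromosome 2 from 9955092 to 9960386, FIS2 on chromosome 2 from 14992565 to 14996756, and MEA on chromosome 1 from 544733 to 549202. SWN lies on chromosome 4 from 886580 to 891987 and VRN2 on chromosome 4 from 9476069 to 9479878. FIE lies on chromosome 3 from 7248809 to 7252452, on the minus strand. EMF2 (20823644 to 20829644), MSI1 (23556012 to 23558245) and LHP1 (5827142 to 5829763, minus strand) lie on chromosome 5. Where the counting did not use strand, an overlapping gene on the other strand can add reads, and no source used here states whether it did. Of the exon bases of MSI1, 132 bp (8.1%) lie under AT5G58240, which was at 18.5 FPKM in replicate 1 and 16.3 in replicate 2. For FIE the overlap was 70 bp (4.5%) with AT3G20730 at 0.0109 and 0.0386 FPKM, and for CLF, FIS2 and LHP1 no overlapping gene covered more than 1.7% of the exon bases. SWN, MEA, EMF2 and VRN2 overlap no annotated gene. The part of these neighbours in the values was not tested.

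The lowest values can be read in fragments. The FPKM of weakly expressed genes with 1 transcript, multiplied by the transcript length in kb, lay near whole multiples of a smallest step, which was 0.0113 in replicate 1 and 0.00997 in replicate 2. Of the genes below 3.5 steps, 91.4% of 302 in replicate 1 and 87.3% of 259 in replicate 2 were within 0.25 of a whole number. A step was taken as 1 fragment, so that 1 FPKM in a transcript of 1 kb stood for about 88.3 fragments in replicate 1 and 100.3 in replicate 2. MEA then came to 1.0 fragments in replicate 1 and 2.9 in replicate 2. MEA has 2 annotated transcripts, and the longest was taken, so its numbers of fragments are approximate. The exact Poisson interval (95%) around 1 fragment runs from 0.000122 to 0.0269 FPKM and that around 3 fragments from 0.00264 to 0.0373, so the replicates did not differ in MEA beyond counting error. For FIS2, 3 fragments would be 0.0130 FPKM in replicate 1 and 0.0114 in replicate 2, taken here as the limit that a count of 0 allows. The upper bound of the two-sided interval used for MEA would be 0.0159 and 0.0140 FPKM. At this depth MEA and FIS2 cannot be told apart. A listed 0 is not always a count of 0 in these data, since all 210 chloroplast and mitochondrial genes are listed at 0 as well.

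**Figure D3:**
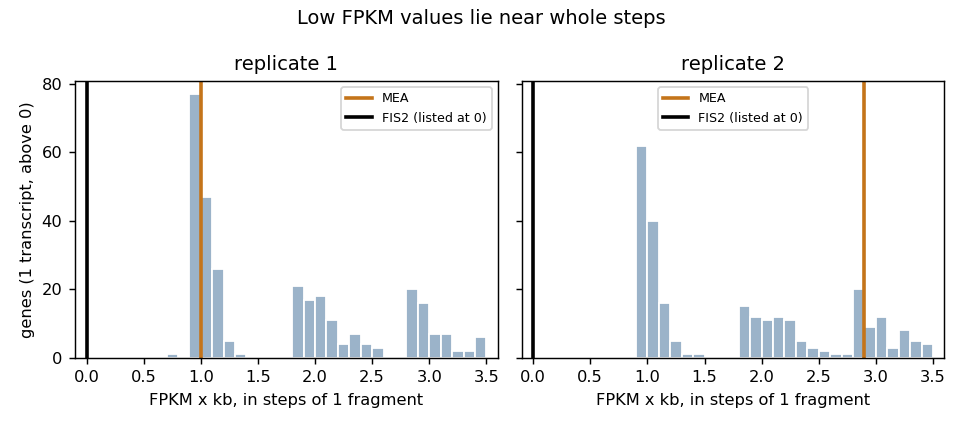
Numbers of genes with 1 transcript by FPKM times transcript length, in units of the smallest step, for values above 0 and below 3.5 steps in replicate 1 (left) and replicate 2 (right). The genes gather near 1, 2 and 3 steps. MEA (2 transcripts, the longest taken) lies at 1.0 in replicate 1 and 2.9 in replicate 2, and FIS2 is listed at 0.

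In the same units the other members above 0 rested on more fragments. CLF, SWN, EMF2, VRN2 and LHP1 also have more than 1 annotated transcript, so their numbers are approximate too. CLF came to about 99 fragments in replicate 1 and 105 in replicate 2, SWN to 138 and 181, FIE to 183 and 191, and LHP1 to 225 and 271. EMF2 came to 337 and 386, VRN2 to 323 and 335, and MSI1 to 1543 and 1591. VRN2 had no more fragments than EMF2, and its higher FPKM comes with a shorter transcript. The ratio of SWN to CLF in FPKM was 1.43 in replicate 1, with an exact binomial interval (95%) of 1.10 to 1.88, and 1.77 in replicate 2 (1.39 to 2.28). The ratio of VRN2 to EMF2 was 1.32 (1.13 to 1.54) in replicate 1 and 1.20 (1.03 to 1.39) in replicate 2. The ratio of CLF to MEA was 69.5 in replicate 1 and 24.4 in replicate 2, and its intervals, 11.8 to 2675 and 7.89 to 117, are wide because of the 1 and 3 fragments of MEA. These intervals cover counting error only, since PCR copies are not independent molecules, and they take the longest transcript as the length of each gene.

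None of the 9 differed at least 1.5-fold between replicates on the scale of FPKM + 1, against 0.383% of all genes. This scale shrinks differences of low genes, so that MEA and FIS2 could not have passed at their levels, and CLF and SWN only by a larger change of the FPKM itself. The log2 ratio of replicate 2 to replicate 1 ran from -0.13 for MSI1 to 0.07 for SWN, with 4 genes lower and 4 higher in replicate 2 and FIS2 at 0 in both. Among the 13074 genes that averaged above 1 FPKM, the median of this ratio was -0.07 and its SD 0.17. All 9 ratios lay within 1 SD of that median. The pseudocount keeps the ratio of MEA at 0.01, although its FPKM in replicate 2 is more than double that in replicate 1.

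**Figure D4:**
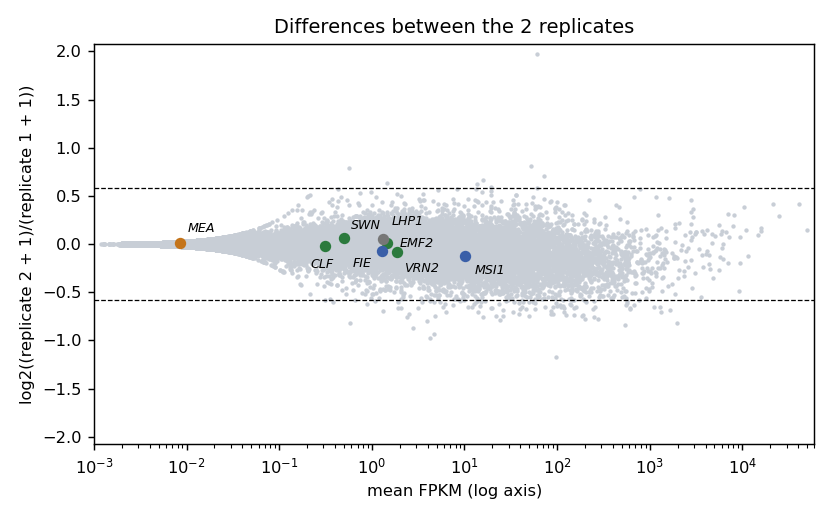
Log2 ratio of replicate 2 to replicate 1 (FPKM + 1) against mean FPKM on a log axis, for all genes with a mean above 0 (grey) and 8 of the 9 genes (coloured as in the plot of FPKM by gene). Dashed lines mark 1.5-fold, the 8 genes lie between -0.13 and 0.07, and FIS2 is listed at 0 and not drawn.

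Against the whole table the members were spread widely. FIS2 aside, 8 of the 9 averaged above 0, against 82.2% of all genes. MSI1, VRN2, EMF2, LHP1 and FIE (5 of 9) averaged above 1 FPKM, against 47.7%. Their median was 1.27 FPKM and that of all genes 0.823. Among all genes MSI1 stood at percentile 80.6, VRN2 at 60.1, EMF2 at 57.1, LHP1 at 55.7 and FIE at 55.2. SWN stood at percentile 44.3, CLF at 39.5, MEA at 20.6 and FIS2 at 8.89.

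The relatives of MSI1 were lower than MSI1 itself. MSI4, also named FVE, a flowering-time regulator, was at 3.38 FPKM in replicate 1 and 2.98 in replicate 2. MSI2 was at 2.80 and 2.43 FPKM, MSI3 at 1.13 and 0.975, and MSI5 at 0.841 and 0.985. The lowest value of MSI1, 9.76, was above every value of these 4 paralogs. FAS1 and FAS2, the other subunits of CAF-1, which loads histones onto replicated DNA with MSI1, were at 0.315 ± 0.0539 and 0.306 ± 0.000833 FPKM (SD, n = 2). They stood close to CLF and far below MSI1.

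PRC1 ubiquitinates histone H2A and works with PRC2. Of 5 genes of PRC1 and its partners, 1 was above 1 FPKM, against 47.7% of all genes, and their median was 0.358. BMI1B and BMI1C, also listed, were not used because the annotation does not give their identifiers these names. The gene above 1 was VRN1, a B3-domain protein of vernalization, at 4.83 ± 0.222 FPKM (SD, n = 2). The RING genes were at 0.668 ± 0.0557 for BMI1A, 0.358 ± 0.0175 for RING1A and 0.175 ± 0.0188 for RING1B. EMF1, a plant-specific Polycomb protein, was the lowest at 0.134 ± 0.00215 FPKM.

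The PHD-finger proteins of the VEL family join PRC2 during vernalization. VIN3, which cold induces, was listed at 0 in both replicates, as was VEL3. VRN5 was at 0.491 FPKM in replicate 1 and 0.491 in replicate 2, and VEL1 was the highest at 1.40 and 1.17. VEL2 was at 0.00510 FPKM in replicate 1 and listed at 0 in replicate 2. The PRC2 scaffold with which VIN3 and VRN5 act, VRN2, was thus expressed above 1 FPKM in plants in which VIN3 was listed at 0.

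Of 5 genes for proteins that bind PRC2 or LHP1 or bring them to their sites, 4 were above 1 FPKM, against 47.7% of all genes. The median of the 5 was 2.98. ALP1, ALP2 and PWO1, also listed, were not used because the annotation does not give their identifiers these names. The telobox-binding protein TRB3, which recruits PRC2 through a short DNA motif, was at 21.6 FPKM in replicate 1 and 20.4 in replicate 2, above all 9 members in both. Its relatives TRB1 and TRB2 were at 2.98 ± 0.191 and 1.96 ± 0.109 FPKM (SD, n = 2), LIF2, which binds LHP1, was at 4.53 ± 0.162, and BLI, which binds CLF, was the lowest at 0.892 ± 0.139.

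Enzymes that act on the same lysine covered a wide range. The demethylase genes REF6 and ELF6, which remove the mark, were at 0.0940 ± 0.00793 and 0.162 ± 0.00604 FPKM (SD, n = 2). JMJ32 was at 0.926 ± 0.00751. The clock-regulated JMJ30, at 2.00 in replicate 1 and 1.57 in replicate 2, was the only one of 4 above 1, against 47.7% of all genes. JMJ13, also listed, was not used because the annotation does not give its identifier this name. The values of REF6, 0.0884 and 0.0996, were below both values of CLF and of SWN. ATXR5 and ATXR6, which place a single methyl group on this lysine, were at 0.809 ± 0.111 and 0.186 ± 0.0865 FPKM.

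Of 20 known targets of PRC2, 5 were above 1 FPKM, against 47.7% of all genes, and 19 were above 0, against 82.2%. The embryo regulator LEC1 was listed at 0 in both replicates. The median of the targets was 0.323 FPKM and that of all genes 0.823. The highest were the meristem gene STM, at 8.70 FPKM in replicate 1 and 8.76 in replicate 2, and the seed dormancy gene DOG1, at 6.99 and 6.12. FT, the florigen gene, was at 1.29 and 1.05, FLC at 1.06 and 1.02, and the meristem gene KNAT6 at 1.08 and 0.942. The floral homeotic gene AG was at 0.522 ± 0.0947 FPKM (SD, n = 2), and the lowest value above 0 was that of the stem cell regulator WUS, at 0.00436 ± 0.00616. These 20 genes were chosen as targets from general knowledge, and whether they carried the mark in these plants was not measured here. The cells in which each target was expressed are not known from bulk RNA.

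**Figure D5:**
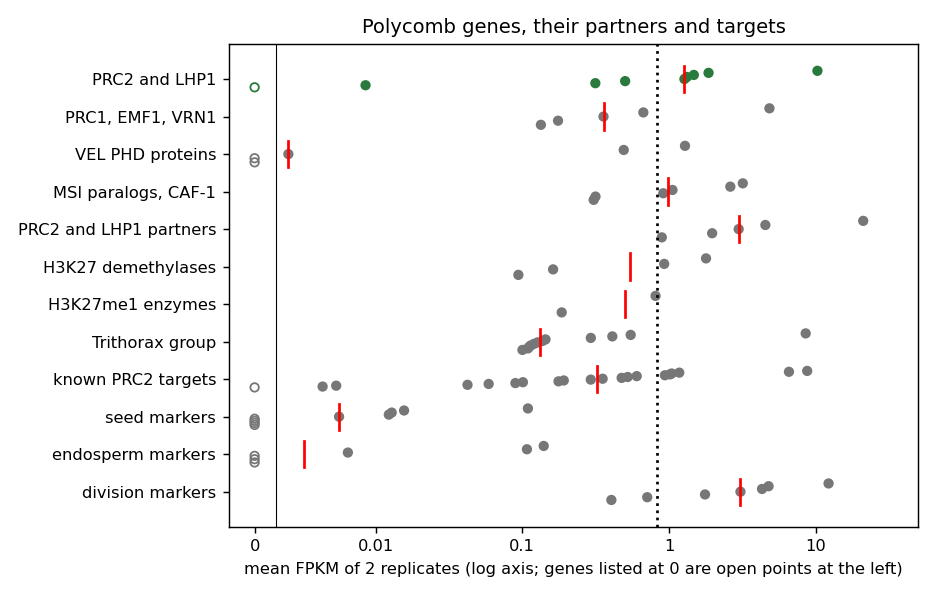
Mean FPKM (log axis) of each gene, 1 row for each group, with red bars for the group medians, a dotted line for the median of all genes (0.823) and open points for genes listed at 0. The PRC2 and LHP1 genes have a median of 1.27, the known PRC2 targets 0.323 and the PRC2 and LHP1 partners 2.98, and no seed or endosperm marker is above 0.140.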

How the data were processed

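The authors aligned the RNA-seq reads of 2 replicates to TAIR10 with TopHat2 2.0.9 and computed FPKM per coding gene with Cufflinks 2.1.1 (versions also in the submitters' processing notes). No source used here states the annotation release, the use of strand or how multiply mapped reads were treated. Read counts are not kept in FPKM, so fragments were estimated from the smallest step of FPKM times transcript length, over genes with 1 transcript of 1500 to 3500 bp.

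Means and SDs were computed over the 2 replicates. Log2 values used a pseudocount of 1 FPKM and no filter. Neighbouring genes were called different where their values did not overlap and the means differed by more than 2 pooled SDs. The rule for the members used identifiers alone, but these genes and the lists were chosen as a subject with earlier results of these data known. Of 103 listed genes, 6 whose name the annotation does not give were left out. Named were all 9 members, the highest and lowest gene of each list, the MSI paralogs, RING genes and demethylases, and, after their values were seen, the other genes given. With 2 libraries of 1 condition, likeness of pattern was not ranked.

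Gene models and sequences came from RefSeq TAIR10.1, which gave a length for 97.5% of the genes. The call of a 1.5-fold difference between replicates was tested on simulated data. There, genes with high FPKM were shifted well beyond the call, with noise far below it. That test checks the computation and does not cover genes as low as most of the members. The fragment steps and the intervals built on them were not tested on simulated data. Alternatives were pseudocounts of 0.1 and 0.01, TPM, other thresholds and gene sets, and each replicate left out. The work used Python 3.11.15, numpy 2.4.6, pandas 2.3.3, scipy 1.17.1, biopython 1.88 and matplotlib 3.10.9.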

Additional observations from a re-analysis of the deposited data

How the results depend on the processing

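No paired analysis was possible because the expression values cover a single group. The 5 differences given here kept their direction under the alternatives run for them. This was fixed in advance, because the genes compared stood in the same order in both replicates. A pseudocount, a rescaling of each library, a replicate left out or the changes of members made here could alter only the sizes. The percentile among genes of similar length was not one of these, and on it EMF2 stood above VRN2. The order of LHP1 and FIE differs between replicates, as FIE over LHP1 was 1.03 in replicate 1 and 0.895 in replicate 2. Sizes on the log2 scale depend on the pseudocount, which by construction holds low values together. With pseudocounts of 0.1 and 0.01, the sporophytic minus seed-specific difference was 3.17 and 5.93, SWN minus CLF 0.54 and 0.66, CLF minus MEA 1.93 and 4.16, VRN2 minus EMF2 0.31 and 0.33, and EMF2 minus FIS2 3.98 and 7.21. With a pseudocount of 1 these were 0.94, 0.19, 0.38, 0.21 and 1.31. After rescaling to TPM, the first was 0.954 and the last 1.32. The first was 0.76 without VRN2 and 1.41 with FIE and MSI1 counted as sporophytic, by the change of members. The count of members above 1 FPKM was 5 under all of its alternatives. At a threshold of 0.5 FPKM in place of 1, the count above it was 2 for PRC1 and its partners, 2 for the demethylases, 1 for ATXR5 and ATXR6, 2 for the trithorax group and 8 for the PRC2 targets. Depth limits MEA and FIS2, whose values rest on 3 or fewer estimated fragments in each replicate.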

Other observations

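Genes of the Trithorax group, which oppose Polycomb silencing, were also measured. Of 12 such genes, 1 was above 1 FPKM, against 47.7% of all genes, the SAND-domain gene ULT1 at 8.52 ± 1.19 (SD, n = 2). The median of the 12 was 0.132 FPKM, against 0.823 over all genes. Neither this list nor the other lists were set against genes of similar length, as the 9 members were. The H3K4 methyltransferase gene ATXR3 was the lowest by mean, at 0.0944 FPKM in replicate 1 and 0.106 in replicate 2. ATX1 was at 0.111 ± 0.0141, and the chromatin remodeller genes BRM and SYD were at 0.144 ± 0.00541 and 0.109 ± 0.0201. PKL, a remodeller that also acts with PRC2, was at 0.547 ± 0.0597. ULT1, PKL and ATX2 (0.411 ± 0.0140) were the members of this group above CLF (0.314 ± 0.0159).

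Of 7 markers of cell division, 5 were above 1 FPKM, against 47.7% of all genes, with a median of 3.06. The mitotic kinase gene CDKB1-1 was the highest at 12.2 ± 1.66 FPKM (SD, n = 2), the replication clamp gene PCNA1 was at 4.30 ± 0.0906, and the replication helicase gene MCM2 was the lowest at 0.404 ± 0.0823. MSI1, which also serves in the replication-coupled chaperone CAF-1, was at 10.2 ± 0.696, within the wide range of these markers. The other CAF-1 subunits, FAS1 (0.315 ± 0.0539) and FAS2 (0.306 ± 0.000833), were below all 7 markers by mean. A link of the level of MSI1 to replication was not tested.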
